A study of Homo sapiens with 4 samples.

Results

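Prefoldin is a cytosolic chaperone built from 6 different subunits, and the mRNAs of all 6 were followed across a polysome gradient of HEK293T cells. The genes PFDN1, PFDN2, PFDN4, PFDN5, PFDN6 and VBP1 were taken by symbol from a table of 19948 genes, with a minimum of 10 counts summed over the libraries, and 6 of 6 were kept. All 6 also passed the minimum of 30 summed counts that defined the 7527 genes tested across the table. HEK293T is a human embryonic kidney line; every pool came from cells treated with cycloheximide at 100 ug/mL for 10 min, which holds elongating ribosomes on their mRNAs. Lysate was separated through sucrose from 10% to 50%, and capped, polyadenylated RNA of the free, monosome, light polysome and heavy polysome pools was read directly on nanopores, 1 library per pool. Apart from cycloheximide, no inhibitor, knockout or other genotype is named in the labels for any pool. The study concerns how mTOR and the RNA-binding protein LARP1 act on TOP mRNAs, whose first bases after the cap are an unbroken stretch of pyrimidines.

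Prefoldin binds unfolded actin and tubulin chains as they leave the ribosome and hands them to the ring-shaped chaperonin CCT, also called TRiC. The complex holds 1 copy of each subunit. PFDN5 and VBP1 are its alpha-type subunits, and PFDN1, PFDN2, PFDN4 and PFDN6 are beta-type subunits that join onto them. An mRNA with more ribosomes travels further into the gradient, and a short coding sequence has room for fewer of them.

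Library totals were 355509 counts in the free, 1329334 in the monosome, 1499401 in the light polysome and 1564531 in the heavy polysome library. There are no replicates, so no p-value is given and all intervals cover 95% counting error only. Levels are given as CPM, the count of a gene over the total of its library on a scale that is the same for every library. How much RNA each pool held is not known here, so a CPM is a share of that pool and not an amount per cell. The cell line markers LIN28B, NEFM, IGF2BP1 and PAX2 had 98, 40, 170 and 6 counts summed over the libraries. Of the markers of other cell types, PTPRC, ALB and CD34 had no count and HBB had 4.

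Sequences around the annotated transcription starts are shown because the study asks about pyrimidine runs at mRNA starts. Entries of the RefSeq promoter table (GRCh38.p14) are given for 4 of the 6 genes, PFDN1, PFDN4, PFDN5 and PFDN6. Each line gives the 15 bases before the start and the 15 from it, 5′ to 3′ on the transcribed strand, with capitals for an unbroken run of pyrimidines that begins at the start. PFDN6 had 2 entries, of which the one with the lower coordinate is printed.
PFDN5, chr12:53295527-53295556, plus strand: tcgccgagagacttcCTCTTCgttaagtcg
PFDN1, chr5:140303087-140303116, minus strand: ttcagtccaactcccactgcgcaggcgctt
PFDN4, chr20:54208072-54208101, plus strand: cccgccgcctgcggtagtccagtcccaaga
PFDN6, chr6:33289582-33289611, plus strand: cttgtttacttccgggtttattactactga
PFDN5 alone among these entries began with a C followed by at least 4 pyrimidines. Its run had 6 bases from the annotated start. The bases just before the start were also pyrimidines in several entries, 4 of them for PFDN5 and 5 for PFDN1. The other 4 entries had A or G at the start. The same pattern, read only on the transcribed strand at the annotated start, was found in 1429 of 35116 promoter entries (4.07%) and in at least 1 entry of 521 of the 6131 tested genes with an entry (8.50%). It describes letters at an annotated start; where the mRNAs of these cells begin was not measured here.

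The 6 prefoldin mRNAs did not share a profile. By mean gradient position they fell into 3 pairs: PFDN4 and PFDN5 nearest the free end, PFDN1 and PFDN2 between, PFDN6 and VBP1 furthest toward the heavy polysomes. By CPM, 2 of the 6 peaked in the monosome, 2 in the light polysome and 2 in the heavy polysome library. Over all tested genes, 61.3% were highest in the heavy polysome, 30.0% in the light polysome, 7.44% in the monosome and 1.30% in the free library.

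Of the alpha-type subunits, PFDN5 (ENSG00000123349.13, chromosome 12, 53295291 to 53299450), also known as a binding partner of the transcription factor MYC, had 93, 448, 397 and 322 counts from free to heavy polysome. From free to heavy polysome its levels were 262 CPM (interval 211 to 320), 337 CPM (307 to 370), 265 CPM (239 to 292) and 206 CPM (184 to 230). The monosome library was highest and the heavy polysome library lowest, and the interval of the light polysome library lay within that of the free library. Of its CPM summed over the pools, 24.5% lay in the free library, the highest such share of the 6, against a median of 4.02% for all tested genes.

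VBP1 (ENSG00000155959.10, chromosome X, 155197007 to 155239817), the prefoldin subunit first named for binding the von Hippel-Lindau protein, ran the other way. It had 13, 116, 235 and 414 counts, or 36.6 CPM (19.5 to 62.5), 87.3 CPM (72.1 to 105), 157 CPM (137 to 178) and 265 CPM (240 to 291) from free to heavy polysome. Each pool was higher than the one before it, and no neighbouring intervals overlapped. The heavy polysome library held 48.5% of its summed CPM and the free library 6.71%, against 47.8% and 4.02% for the median over all tested genes.

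**Figure D1:**
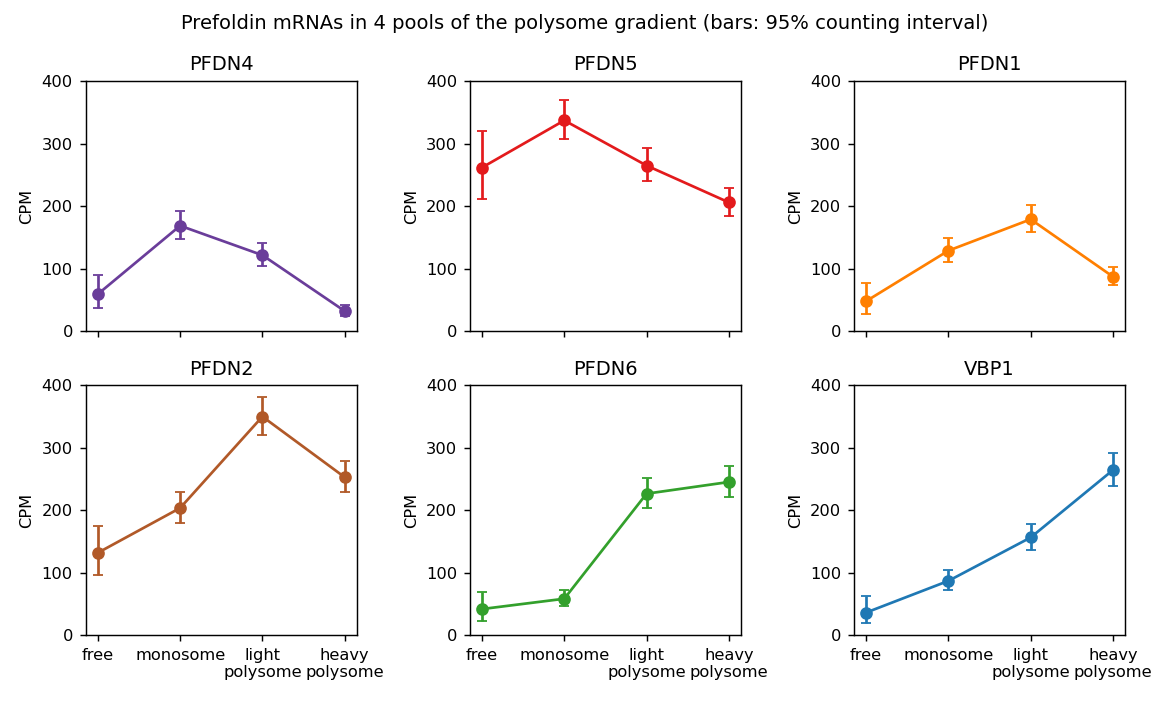
CPM of each prefoldin mRNA (vertical axis) in the free, monosome, light polysome and heavy polysome libraries, 1 library per pool; bars are 95% exact Poisson intervals. PFDN4 and PFDN5 peaked in the monosome pool at 169 and 337 CPM, PFDN1 and PFDN2 in the light polysomes at 179 and 350 CPM, and PFDN6 and VBP1 in the heavy polysomes at 245 and 265 CPM.

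Among the beta-type subunits, PFDN4 (ENSG00000101132.9, chromosome 20, 54207847 to 54228052) had the lowest level in the heavy polysome library. It had 21, 224, 182 and 50 counts, or 59.1 CPM (36.6 to 90.3), 169 CPM (147 to 192), 121 CPM (104 to 140) and 32.0 CPM (23.7 to 42.1) from free to heavy polysome. The monosome library was highest, and the intervals of the heavy polysome and free libraries overlapped. In the heavy polysome library lay 8.39% of its summed CPM, the lowest share of the 6, and 44.2% lay in the monosome library, the highest.

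PFDN1 (ENSG00000113068.9, chromosome 5, 140245039 to 140303121) had 17, 171, 268 and 136 counts. Its levels were 47.8 CPM (27.9 to 76.6), 129 CPM (110 to 149), 179 CPM (158 to 201) and 86.9 CPM (72.9 to 103) from free to heavy polysome. The light polysome library was the highest of the 4, and its interval did not overlap that of any other pool.

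PFDN2 (ENSG00000143256.4, chromosome 1, 161100556 to 161118111) had 47, 271, 525 and 396 counts. Its levels were 132 CPM (97.1 to 176), 204 CPM (180 to 230), 350 CPM (321 to 381) and 253 CPM (229 to 279). Like PFDN1 it was highest in the light polysome library, where 37.3% of its summed CPM lay against 40.4% for PFDN1, while 26.9% lay in the heavy polysome library against 19.7% for PFDN1.

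PFDN6 (ENSG00000204220.11, chromosome 6, 33289302 to 33298401) had 15, 78, 340 and 384 counts, or 42.2 CPM (23.6 to 69.6), 58.7 CPM (46.4 to 73.2), 227 CPM (203 to 252) and 245 CPM (222 to 271). Its step lay between the monosome and light polysome libraries. The intervals of the 2 lighter libraries overlapped each other, as did those of the 2 polysome libraries. Of its summed CPM, 39.6% lay in the light and 42.8% in the heavy polysome library.

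The exons of PFDN6 share 724 bases with RGL2 and 226 with WDR46 on the opposite strand, and whether counting used the strand is not known here. RGL2 had 0, 2, 15 and 11 counts and WDR46 had 2, 39, 66 and 219 from free to heavy polysome. How far such reads entered the PFDN6 count was not tested. PFDN1 and PFDN2 share 39 and 26 exon bases with CYSTM1 and NIT1. Processed pseudogenes matched parts of several members: the longest matches were 447 bases at 89.3% identity for PFDN5 and 402 bases at 92.8% for PFDN4, and no pseudogene among these matches is in the count table.

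**Figure D2:**
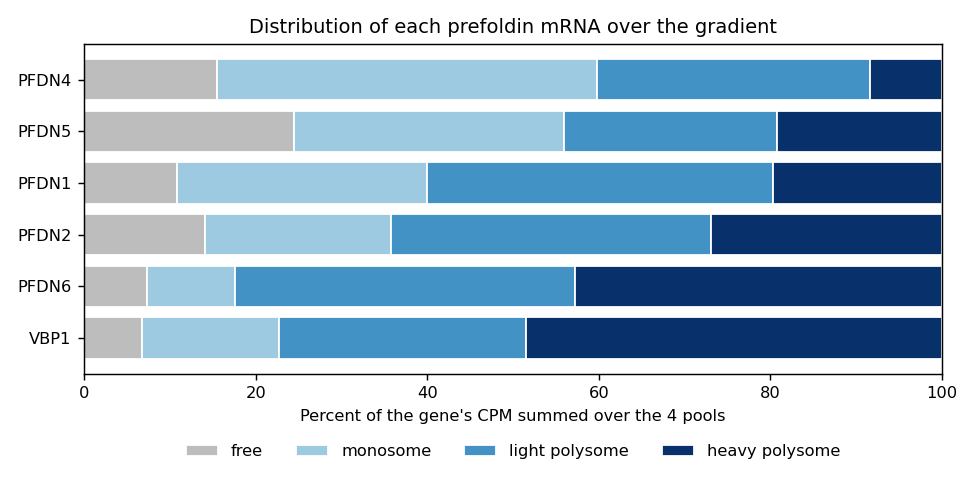
Share of each gene's CPM, summed over the 4 pools, that lay in each pool (horizontal axis, percent), with genes from the lowest to the highest mean gradient position. The heavy polysome part widens from 8.39% for PFDN4 to 48.5% for VBP1, and the free part is widest for PFDN5 at 24.5%.

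A mean gradient position was computed for each gene by weighting its CPM with 0, 1, 2 and 3 from free to heavy polysome. PFDN4 lay at 1.33 ± 0.10 and PFDN5 at 1.39 ± 0.08, where the error is the 95% counting error. PFDN1 lay at 1.69 ± 0.10, PFDN2 at 1.77 ± 0.08, PFDN6 at 2.18 ± 0.09 and VBP1 at 2.19 ± 0.10. Neighbours within each pair differed by less than their combined counting error, while the steps between pairs exceeded it. The order within all 3 pairs turned under TMM scaling. PFDN5 then lay at 0.76 and PFDN4 at 0.90, PFDN2 at 1.11 and PFDN1 at 1.15, VBP1 at 1.56 and PFDN6 at 1.57. It also turned in all 3 with DESeq2 size factors, and for PFDN4 and PFDN5 after thinning to the shallowest library. The 3 pairs kept their order under every scaling, weighting and depth tried. With weights of 0, 1, 3 and 8, PFDN4 lay at 2.07, PFDN5 at 2.60 and PFDN1 at 3.08. PFDN5 was then nearer to PFDN1 than to PFDN4.

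The alpha-type subunits stood in the outer pairs, 1 at each end, and the beta-type subunits were spread over all 3. All 6 lay below the median position of the tested genes, 2.25 (quartiles 1.95 and 2.47). PFDN4 stood at percentile 3.95 of the tested genes, PFDN5 at 4.88, PFDN1 at 12.8, PFDN2 at 16.0, PFDN6 at 42.8 and VBP1 at 44.1.

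Prefoldin coding sequences are short. In GENCODE release 29 the principal transcripts have coding lengths, stop codon included, of 369 nucleotides for PFDN1, 390 for PFDN6, 405 for PFDN4, 465 for PFDN2, 465 for PFDN5 and 594 for VBP1, against a median of 1200 for the tested genes. The 825 tested genes with a coding length in the same range, chosen for comparison after the values were seen, had a median position of 1.89 (quartiles 1.65 and 2.152). PFDN4 and PFDN5 lay below the lower of these quartiles, PFDN1 and PFDN2 within them, and PFDN6 and VBP1 just above the upper one. PFDN1, PFDN6 and VBP1 were nearer to a quartile than their counting error, so their side of it is not settled. The order among the 6 did not follow coding length: PFDN1 and PFDN6, which differ by few codons, lay at 1.69 and 2.18, and PFDN2 and PFDN5, of equal length, at 1.77 and 1.39.

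**Figure D3:**
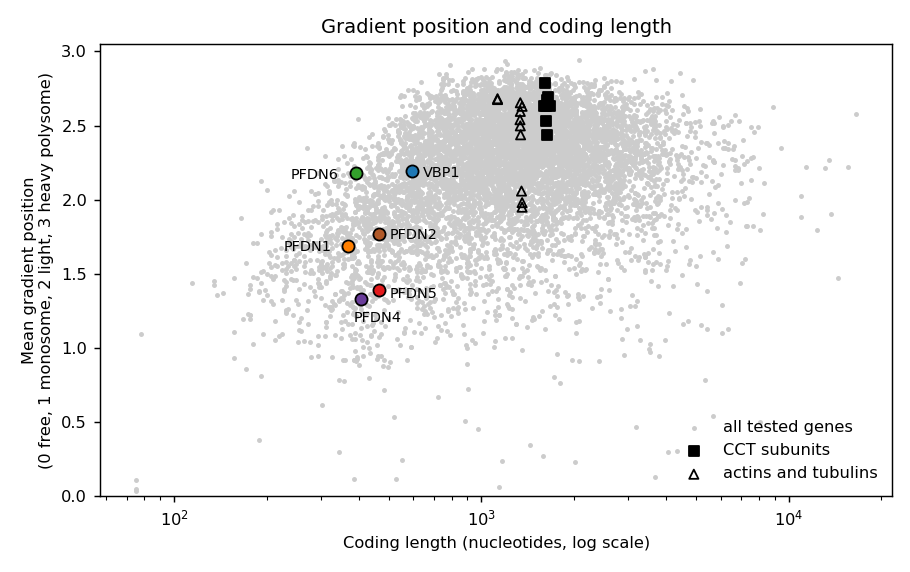
Mean gradient position (vertical axis, 0 free to 3 heavy polysome) against coding length (horizontal axis, nucleotides, log scale) for all tested genes in grey, with the prefoldin genes in colour, CCT subunits as squares and tested actins and tubulins as triangles. Prefoldin genes lie between 1.33 and 2.19 and CCT subunits between 2.43 and 2.79.

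The heavy polysome library was set against the free library to compare the ends of the gradient. After 0.5 was added to each count, the share of the median tested gene was 8.26-fold higher at the heavy end. Log2 ratios, with the same addition, are given relative to that gene. PFDN4, with 50 counts in the heavy polysome and 21 in the free library, lay at -3.95 (interval -4.69 to -3.12), and PFDN5 at -3.40 (-3.73 to -3.04). PFDN1 lay at -2.22 (-2.92 to -1.36) and PFDN2 at -2.12 (-2.55 to -1.64). The intervals of PFDN6 at -0.55 (-1.25 to 0.35) and VBP1 at -0.24 (-0.98 to 0.73) included the median gene.

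A gene was called higher or lower when it stood at least 2-fold from the median gene and its interval left that gene out. In heavy polysome against free, 4 of 6 prefoldin genes were lower and 0 higher, where 15.3% of all tested genes were lower and 6.36% higher. The members' median was -2.17, but -0.12 when the ratio was centred on genes with 10 or more counts in both libraries, and 0.87 with library totals alone. Library totals alone take out no middle gene, so 0.87 does not compare the members with other genes. Ranked among the tested genes, which no centring changes, the members stood from percentile 4.17 for PFDN4 to 44.4 for VBP1. Of the tested genes, 2348 had no count in the free library. Centred on genes with 10 or more counts in both libraries, PFDN4 and PFDN5 lay at -1.90 and -1.34 and were still called lower. PFDN1 and PFDN2 then lay at -0.16 and -0.07, and neither was called. How far a member lay from the middle gene, and the direction of PFDN6 and VBP1, depend on the choice of that gene. The order of the 6 and the gaps between them are free of that choice. Without any centring, and with 0.5 added to each count, heavy polysome shares were set against free ones. The fold was 0.53 for PFDN4, 0.78 for PFDN5, 6.98 for VBP1 and 5.64 for PFDN6.

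The monosome library was set against the free library to compare mRNAs under 1 ribosome with those under none. No prefoldin gene was called in either direction, where 5.13% of the tested genes were higher and 4.57% lower. PFDN5 at -0.91 (-1.23 to -0.56) and PFDN2 at -0.65 (-1.09 to -0.16) were below the median gene by less than 2-fold, and the other 4 had intervals that included it. PFDN4 was the highest at 0.21 (-0.40 to 0.97) and PFDN1 stood at 0.12 (-0.56 to 0.97). The free library limits these values, since 5 of the 6 had at most 47 counts there.

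**Figure D4:**
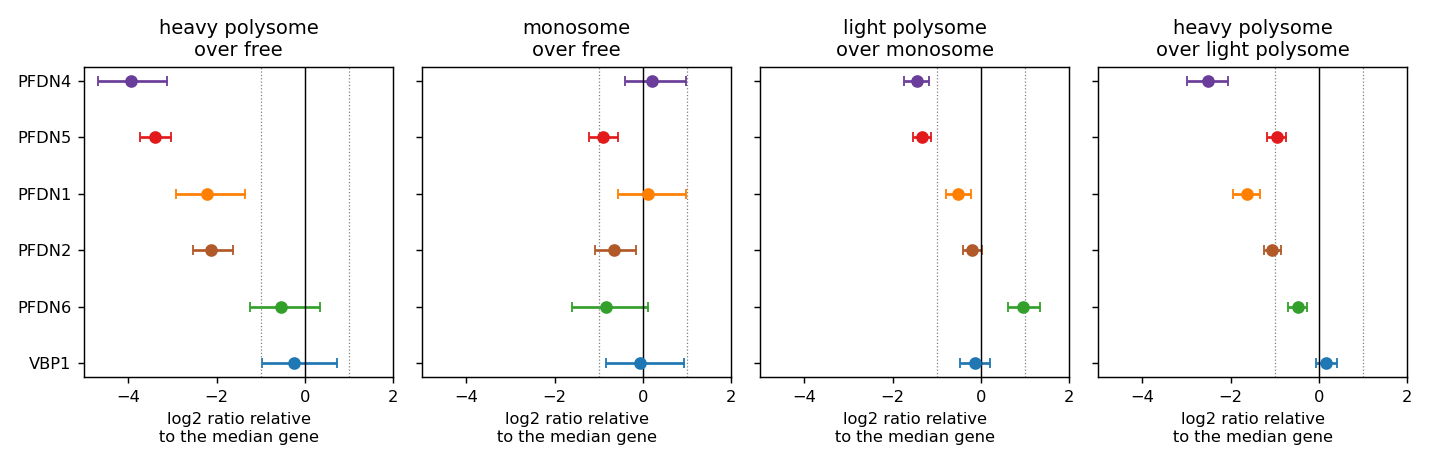
Log2 ratio of shares relative to the median tested gene (horizontal axis) for each prefoldin gene in 4 comparisons, with 95% counting intervals; the solid line is the median gene and dotted lines mark 2-fold. The genes spread from -3.95 to -0.24 in heavy polysome over free, and from -2.51 to 0.16 in heavy over light polysome; with library totals alone the members' median in the first panel turned to 0.87 and that in the third to 0.63.

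The light polysome library was set against the monosome library to compare mRNAs with a few ribosomes and with 1. PFDN6 stood apart from the other 5 in this step. PFDN4 at -1.46 (-1.75 to -1.17) and PFDN5 at -1.33 (-1.53 to -1.13) were called lower in the light polysome library. PFDN6, with 340 counts in the light polysome and 78 in the monosome library, lay at 0.96 (0.61 to 1.34), just short of the 2-fold limit. PFDN1 lay at -0.51 (-0.79 to -0.22), PFDN2 at -0.20 (-0.42 to 0.01) and VBP1 at -0.14 (-0.47 to 0.19). So 2 of 6 were lower and 0 higher, against 16.3% and 14.9% of all tested genes; the members' median of -0.36 turned to 0.63 with library totals alone, where the shift of the median gene, 1.98-fold in favour of the light polysomes, stays in every ratio.

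Heavy polysomes were set against light ones to compare mRNAs with many and with a few ribosomes. PFDN4 was lowest at -2.51 (-2.998 to -2.06), followed by PFDN1 at -1.63 (-1.94 to -1.33), PFDN2 at -1.06 (-1.25 to -0.87) and PFDN5 at -0.95 (-1.17 to -0.74). PFDN6 lay at -0.48 (-0.69 to -0.26) and VBP1 at 0.16 (-0.07 to 0.40). Of the 6, 3 were called lower and 0 higher, against 28.3% and 26% of all tested genes. PFDN2 was the called member nearest the limit and PFDN5 the uncalled one, and both calls depend on the setting. PFDN2 came inside 2-fold with a minimum of 100 summed counts (-0.86), with the centre on genes with 10 or more counts in both libraries (-0.90), with TMM (-0.9985), with library totals alone (-0.47) and after thinning to the shallowest library (-0.90), where PFDN5 passed it at -1.03. The members' median was -1.01, and the 825 genes of like coding length had a median of -1.30. In the other 3 comparisons the members' median lay below that of these genes: -2.17 against -1.33 in heavy polysome over free, -0.36 against -0.09 in monosome over free and -0.36 against 0.10 in light polysome over monosome.

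Ratios between members need no scaling, because both genes come from the same libraries. All 15 pairs were compared by the odds of a heavy against a light polysome read, and for 14 the 95% counting interval of the log2 odds ratio left out 0. PFDN4 against VBP1 was the widest, at -2.68 (-3.22 to -2.16). PFDN5 against VBP1, the alpha-type subunits, stood at -1.12 (-1.44 to -0.80). The exception was PFDN2 against PFDN5, at -0.10 (-0.40 to 0.19). These intervals were not adjusted for the number of pairs.

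PFDN5, which stood beside PFDN4 at the free end, thus kept a larger part of its reads in the heavy polysomes than PFDN4 did, with a log2 odds ratio of PFDN4 against PFDN5 of -1.56 (-2.09 to -1.05). Its profile was flat, with 24.5%, 31.5%, 24.8% and 19.2% of its summed CPM from free to heavy polysome. That of PFDN4 was peaked, with 15.5%, 44.2%, 31.9% and 8.39%.

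The make-up of the prefoldin reads differed along the gradient. Together the 6 genes had 206, 1308, 1947 and 1702 counts, or 579 CPM (503 to 664), 984 CPM (931 to 1039), 1299 CPM (1241 to 1358) and 1088 CPM (1037 to 1141) from free to heavy polysome. Of the prefoldin counts, PFDN5 gave 45.1% (Clopper-Pearson interval 38.2 to 52.2), 34.3% (31.7 to 36.9), 20.4% (18.6 to 22.2) and 18.9% (17.1 to 20.9) in the same order. VBP1 gave 6.31% (3.40 to 10.5), 8.87% (7.38 to 10.5), 12.1% (10.7 to 13.6) and 24.3% (22.3 to 26.4).

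PFDN4 gave 2.94% of prefoldin counts in the heavy polysome library (2.19 to 3.85), against 17.1% in the monosome library (15.1 to 19.3). PFDN6 gave 22.6% (20.6 to 24.6) in the heavy polysome library, against 5.96% (4.74 to 7.39) in the monosome library. PFDN2 kept between 20.7% and 27.0% in all 4, and PFDN1 between 7.99% and 13.8%. In the heavy polysome library VBP1, PFDN2 and PFDN6 had overlapping intervals, and the interval of PFDN5 overlapped that of PFDN6.

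**Figure D5:**
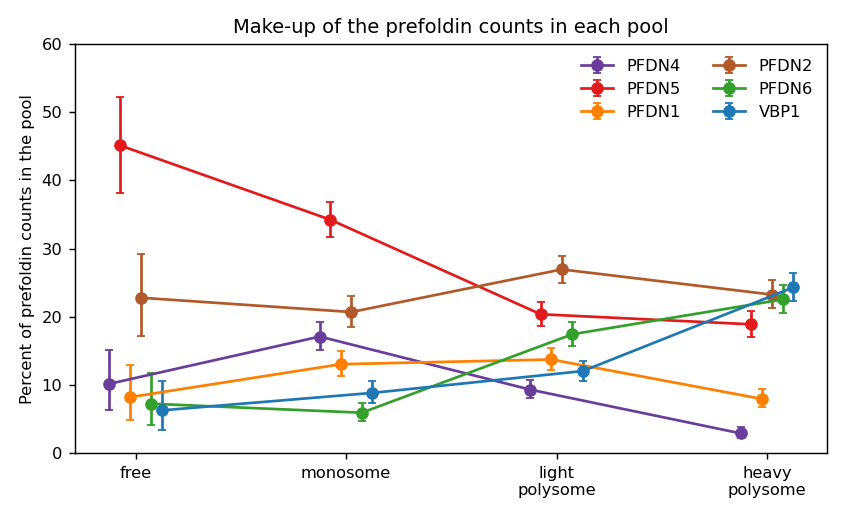
Percent of all prefoldin counts in a pool that came from each gene (vertical axis), by pool, with 95% Clopper-Pearson intervals; points are shifted sideways for legibility. PFDN5 stands at 18.9% at the heavy end against 45.1% at the free end, and VBP1 at 24.3% against 6.31%.

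The partners of prefoldin were taken from 5 lists. The subunits of the chaperonin CCT lay far deeper in the gradient, with a median position of 2.63 and all 8 called higher in heavy against light polysome, where 26% of tested genes were. The most counted, CCT4, had 19, 130, 291 and 1303 counts and lay at 2.53. CCT2 was the highest at 2.79, with no count in the free library, and CCT3 the lowest at 2.43, above every prefoldin gene. Coding lengths also differ, with a median of 435 nucleotides for prefoldin and 1629 for CCT, and the part of length in this difference was not tested.

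Actins and tubulins, the main substrates of prefoldin and CCT, also lay deeper, with a median position of 2.54 for the 11 tested of 13 genes. In heavy against light polysome 9 of the 11 were higher and 0 lower, against 26% and 28.3% of all tested genes. Against the free library they were split. In the heavy polysome library 2 were higher and 3 lower, against 6.36% and 15.3% of all tested genes. In the monosome library 0 were higher and 2 lower, against 5.13% and 4.57%. ACTB, cytoplasmic beta-actin, was both the most counted and the highest at 2.68, and TUBA1A, an alpha-tubulin with near-identical relatives whose reads may be split, was the lowest at 1.95. PFDN6 and VBP1 fell inside this range and the other 4 prefoldin genes below it.

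The tubulin folding cofactors, which take tubulin from CCT and assemble the dimer, had a median position of 2.13 over 6 genes. TBCA, a small beta-tubulin binding protein with a coding length of 327 nucleotides, was the most counted and the lowest, with 56, 692, 749 and 332 counts and a position of 1.55. TBCD was the highest at 2.65, on 43 counts in all. In heavy against light polysome 1 cofactor was higher and 1 lower, against 26% and 28.3% of all tested genes.

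The prefoldin-like complex, in which URI1, UXT and PDRG1 are relatives of prefoldin subunits bound to RUVBL1 and RUVBL2, had a median position of 2.16 over 8 genes. UXT, an alpha-type prefoldin relative, was the lowest at 1.46, with 65, 329, 471 and 211 counts, and lay at -3.49 (-3.89 to -3.06) in heavy polysome against free, a value between those of PFDN4 and PFDN5. RUVBL1, an ATPase, was the highest at 2.71, and POLR2E, a subunit shared by the RNA polymerases, the most counted at 2.37. In heavy against light polysome 1 of the 8 was higher and 2 lower, against 26% and 28.3% of all tested genes. The 3 phosducin-like and thioredoxin-like cofactors of CCT had positions of 2.33 for PDCL3, the most counted, to 2.56 for PDCL. Of these 3, 2 were higher in heavy against light polysome, where 26% of all tested genes were.

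The genes nearest to each member in profile were found among 4343 genes with at least 100 summed counts, by the sum of absolute differences in the 4 pool shares. They describe likeness over 4 libraries only. PFDN5 was nearest to BROX, RPL11 and CCDC58, at 4.87, 7.42 and 7.59 percentage points, and RPL11, a protein of the large ribosomal subunit, had 26.3%, 28.0%, 26.7% and 19.1% of its summed CPM from free to heavy polysome. PFDN4 was nearest to STYX, STARD3NL and POPDC3, at 4.06, 4.39 and 4.45 points. PFDN1 was nearest to PXMP2 at 3.08, TRAPPC10 at 5.05 and AFMID at 5.09, and PFDN2 to C15orf40 at 4.39, NDUFS5 at 4.48 and LGALSL at 4.82.

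PFDN6 was nearest to AURKAIP1, KDELR2 and ALKBH3, at 2.54, 2.71 and 2.81 points, and VBP1 to TEX264, NSL1 and MRPS2, at 2.43, 2.82 and 3.74. No prefoldin gene was among the nearest of another. Between members the closest profiles were PFDN1 and PFDN2, 21.1 points apart, and PFDN6 and VBP1, 23.0 apart. By this measure PFDN5 was nearer to PFDN1, at 32.2 points, than to PFDN4, at 39.6, so the pairing of PFDN4 with PFDN5 holds for the mean position and not for the profile. The most distant were PFDN4 and PFDN6 at 84.3.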

How the data were processed

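The authors' deposited values were unscaled whole-number counts per gene for 4 libraries of 1 gradient pool each. The hg38 build, minimap2 2.15 and featureCounts of Subread 1.6.2 are named per the submitters' processing notes; annotation release, strand setting and handling of multiple alignments: not given in the sources used here. A direct RNA read is 1 molecule, so counts were not divided by length.

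From the counts, log2 ratios of shares (pseudocount 0.5) were centred on the median of genes with at least 30 summed counts, with exact conditional binomial (Clopper-Pearson) 95% intervals; CPM intervals are exact Poisson. The calculation was tested on simulated libraries drawn from the same shares, apart from a set of genes changed by known folds. Their median gene was not shifted as in these libraries, so the simulation does not test the choice of centre. Without replicates no residual degrees of freedom remain, so edgeR and DESeq2 gave scaling factors only and no test was made. Position errors use a normal approximation to counting error. Comparisons share libraries.

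The members and lists were chosen with earlier results of these data known. Named genes were the members, the most counted, highest and lowest tested gene of each partner list, and the 3 nearest genes in profile; overlapping genes were added after their values were seen. Gene positions and coding lengths were read from GENCODE release 29, which gave a length for 99.2% of the tested genes. Protein sequences were not used here, and some start-site sequences are not reported here. Analyses used Python 3.11.15, numpy 2.4.6, pandas 2.3.3, scipy 1.17.1, matplotlib 3.10.9, blastn 2.17.0 and R 4.3.3 with edgeR 4.0.16 and DESeq2 1.42.0.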

Additional observations from a re-analysis of the deposited data

How the results depend on the processing

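Minimum counts of 10 or 100, a pseudocount of 1 or none, other centres and scalings (TMM, DESeq2 size factors, library totals alone) and thinning to the shallowest library were tried. With library totals alone the members' median log2 ratio was 0.87 in heavy polysome against free, 0.91 in monosome against free, 0.63 in light polysome against monosome and -0.42 in heavy against light polysome. PFDN1 and PFDN2 then lay at 0.83 and 0.92 in heavy polysome against free. Called there were 2 members higher and 0 lower, where 5458 of the 7527 tested genes were higher and 227 lower. In monosome against free 3 members and 2048 tested genes were higher, and 0 members and 60 genes lower. In light polysome against monosome 1 member and 3310 genes were higher, and 0 members and 278 genes lower. This setting leaves the shift of the median gene in every ratio, by construction. Centred on genes with 10 or more counts in both libraries, heavy polysome against free had a median of -0.12. There 2 members were higher and 2 lower, and of the 7527 tested genes 3557 were higher and 425 lower. Light polysome against monosome then had 1 member and 1393 tested genes higher. A minimum of 10, and thinning, also gave 1 higher in light polysome against monosome, with 1283 of 9865 and 701 of 7527 genes higher. A minimum of 100, and thinning, gave 1 lower in monosome against free, with 372 of 4343 and 440 of 7527 genes lower. The cause was not tested. In heavy against light polysome, 3 members were lower, or 2 with a minimum of 100, the centre on genes with 10 or more counts, TMM or library totals alone. Of all tested genes 2131 of 7527 were lower with the main settings. In the other settings just named, in that order, 1292 of 4343 and 1906, 2036 and 1349 of 7527 were lower. The median position of the 6 was 1.73, 1.13 with TMM, 1.10 with DESeq2 size factors and 3.28 with weights of 0, 1, 3 and 8, which change its scale. No library could be left out, since each pool has 1. No paired analysis was possible because each pool has 1 library. Depth limits the free library most, where 1 count is 2.81 CPM.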
